A study of Mus musculus with 12 samples.

Results

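The nuclear-encoded subunits of oxidative phosphorylation were followed in RNA-seq of the inferior vena cava (IVC) of 12 C57BL/6J mice aged 10 weeks, collected on postoperative day 7. 6 mice had an arteriovenous fistula (AVF), made with a needle puncture between the infrarenal aorta and the IVC, and 6 had the sham operation, which was the same surgery without that puncture. Each operation group held 3 female and 3 male wild-type mice, all under the same anesthesia and analgesia, and each mouse gave 1 library that was not pooled. The text of the study calls 2 AVF (#05, male, and #09, female) outliers (OUT) and the other 4 (#04 and #06, male, #07 and #11, female) nAVF, while the sample labels give operation and sex only. That division was made on the expression of these same libraries. The p values of nAVF or OUT against sham and between nAVF and OUT therefore do not account for how the groups were formed. Members were all rows with a protein-coding biotype whose mouse symbol begins with Nduf followed by a, b, c, s or v and a digit, with Uqcr, with Cox and a digit from 4 to 8, or with Atp5, or is one of the Sdh genes a to d. The rule found 89 of the 55414 rows, with 88 symbols: 39 of complex I, 4 of complex II, 8 of complex III, 19 of complex IV and 19 of complex V.

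Oxidative phosphorylation turns the energy of electrons into ATP across the inner mitochondrial membrane. Complex I takes electrons from NADH and complex II from succinate, coenzyme Q carries them to complex III, and cytochrome c carries them on to complex IV, which hands them to oxygen. The proton gradient that complexes I, III and IV build drives the ATP synthase, complex V. The mitochondrial genome encodes some core subunits of complexes I, III, IV and V, and the nucleus encodes all others. A vein of this calibre holds smooth muscle, endothelium and fibroblasts and lies in fat, and brown fat is among the tissues richest in mitochondria.

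85 of the 89 rows had more than 1 CPM in at least 2 libraries and were tested, 38 in complex I, 4 in II, 8 in III, 17 in IV and 18 in V. The 4 others were Cox7b2, Cox8c and Ndufb11b, listed at 0 in every library, and a further row of the symbol Atp5po with a summed count of 1.8. Total counts were 15177881 to 22717423 per library, and levels are in normalized CPM, which are CPM after TMM scaling of the libraries for depth and composition. A count of 3 was 0.127 to 0.323 normalized CPM, which covers counting error only. RSEM divides reads between similar sequences, and 25 of the tested rows, among them Ndufb4, Uqcrb, Uqcrh, Cox5b, Cox6c, Cox7c, Atp5f1b, Atp5me, Atp5pd, Atp5mc1 and Atp5mc2, had values that were not whole in 6 or more libraries and are the less certain ones. Sample #07 had 46.0% of its counts in ribosomal RNA genes, against 2.39% to 12.6% in the others.

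Promoter windows of 6 members are shown here because the subunits moved together and these windows show the letters they do and do not share. Each is the 250 bases before a RefSeq start (build GRCm38.p6; the count table is on GRCm39, and no coordinates were converted), 5′ to 3′ on the strand of the gene, with every match to a searched motif in capitals.
Ndufb4 (chr16:37654369-37654618, minus strand): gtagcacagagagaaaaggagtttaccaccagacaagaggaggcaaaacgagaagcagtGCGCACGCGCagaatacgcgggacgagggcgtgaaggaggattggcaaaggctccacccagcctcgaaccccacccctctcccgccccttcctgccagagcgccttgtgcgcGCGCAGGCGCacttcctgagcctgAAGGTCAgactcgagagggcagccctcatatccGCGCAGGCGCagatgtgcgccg
Sdha (chr13:74350241-74350490, minus strand): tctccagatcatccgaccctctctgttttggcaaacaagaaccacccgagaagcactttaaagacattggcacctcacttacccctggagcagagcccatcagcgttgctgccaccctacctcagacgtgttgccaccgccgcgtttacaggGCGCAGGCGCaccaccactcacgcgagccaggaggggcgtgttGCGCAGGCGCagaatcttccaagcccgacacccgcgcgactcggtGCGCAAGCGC
Cox6a1 (chr5:115348959-115349208, minus strand): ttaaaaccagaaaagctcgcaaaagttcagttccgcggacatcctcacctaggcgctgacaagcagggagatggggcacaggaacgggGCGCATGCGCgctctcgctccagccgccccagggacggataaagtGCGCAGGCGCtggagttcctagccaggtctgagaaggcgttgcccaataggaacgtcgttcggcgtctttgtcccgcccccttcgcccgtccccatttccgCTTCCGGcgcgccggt
Cox7a1 (chr7:30183921-30184170, plus strand): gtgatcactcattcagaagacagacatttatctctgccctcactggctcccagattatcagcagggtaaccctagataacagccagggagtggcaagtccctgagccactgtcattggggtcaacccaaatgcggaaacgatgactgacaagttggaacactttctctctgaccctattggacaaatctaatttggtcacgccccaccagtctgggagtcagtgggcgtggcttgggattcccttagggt
Atp5mc2 (chr15:102671048-102671297, minus strand): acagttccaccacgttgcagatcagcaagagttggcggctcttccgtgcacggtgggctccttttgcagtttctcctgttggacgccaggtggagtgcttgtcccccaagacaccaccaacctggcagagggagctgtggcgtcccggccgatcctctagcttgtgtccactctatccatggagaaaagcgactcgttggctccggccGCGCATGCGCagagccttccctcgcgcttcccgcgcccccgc
Atp5mc3 (chr2:73911327-73911576, minus strand): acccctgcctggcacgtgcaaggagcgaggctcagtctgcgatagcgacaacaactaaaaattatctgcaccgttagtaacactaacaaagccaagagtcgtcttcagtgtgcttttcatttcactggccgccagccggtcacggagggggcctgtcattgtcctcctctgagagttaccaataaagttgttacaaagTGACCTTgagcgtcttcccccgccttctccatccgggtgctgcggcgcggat
The motifs, searched on both strands, were GCGCA and GCGC with any 1 base between them for NRF1, AAGGTCA for the estrogen-related receptors (ERR), CCGGAAG for ETS factors such as GABP, AAGATGG for YY1 and TGACGTCA for CREB, and no match of one overlapped a match of another in the 6 windows. Ndufb4 holds 3 NRF1 matches and 1 ERR match, Sdha 3 NRF1 matches, and Cox6a1 2 NRF1 matches and an ETS match. Atp5mc2 has 1 NRF1 match, Atp5mc3 1 ERR match, and Cox7a1 none of the searched letters. Over the 68 of 88 symbols with a window, 13 (19.1%) held the NRF1 motif, against 5.84% of 17492 genes. The ETS motif was in 12 (17.6% against 10.2%), ERR in 5 (7.35% against 4.18%), CREB in 4 (5.88% against 2.20%) and YY1 in 1 (1.47% against 4.77%). A match is a string of letters in the window and not a shown binding site.

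Subunits were lower in AVF than in sham across all 5 complexes. By edgeR's quasi-likelihood test with Benjamini-Hochberg adjustment over 15912 genes, 43 of the 85 tested subunits (50.6%) fell and 0 rose at an adjusted p value under 0.05, against 5.13% of all tested genes that fell and 8.63% that rose. At an unadjusted p value under 0.05, 73 were lower and 0 higher, where 15.2% and 16.4% of all tested genes were. The median log2 fold change was -0.64 for the subunits and -0.01 for all tested genes, and 81 of 85 values were negative, as were 51.9% of all. Only Cox7a1 and Cox8b also fell by 2-fold or more, a size that 1.4% of all tested genes reached in that direction. The adjusted p values of the 43 lay between 0.00326 and 0.0495, with a median of 0.0327 and all but that of Cox7a1 at 0.0173 or more. The count depended on single libraries. It was 4 without #22, 5 without #05 or without #11, 6 without #16 and 7 without #06. It was 12 without #19 or without #23, 14 without #07, and 62 without #17 or without #18. With any 1 library left out, 2.47% to 5.95% of all tested genes were lower. The number of subunits lower at an unadjusted p value under 0.05 was 65 to 76 in these fits. The share of all tested genes at that threshold was not counted in them. Cox7a1, Cox8b, Ndufb10 and Ndufb8 passed whichever library was left out.

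**Figure D1:**
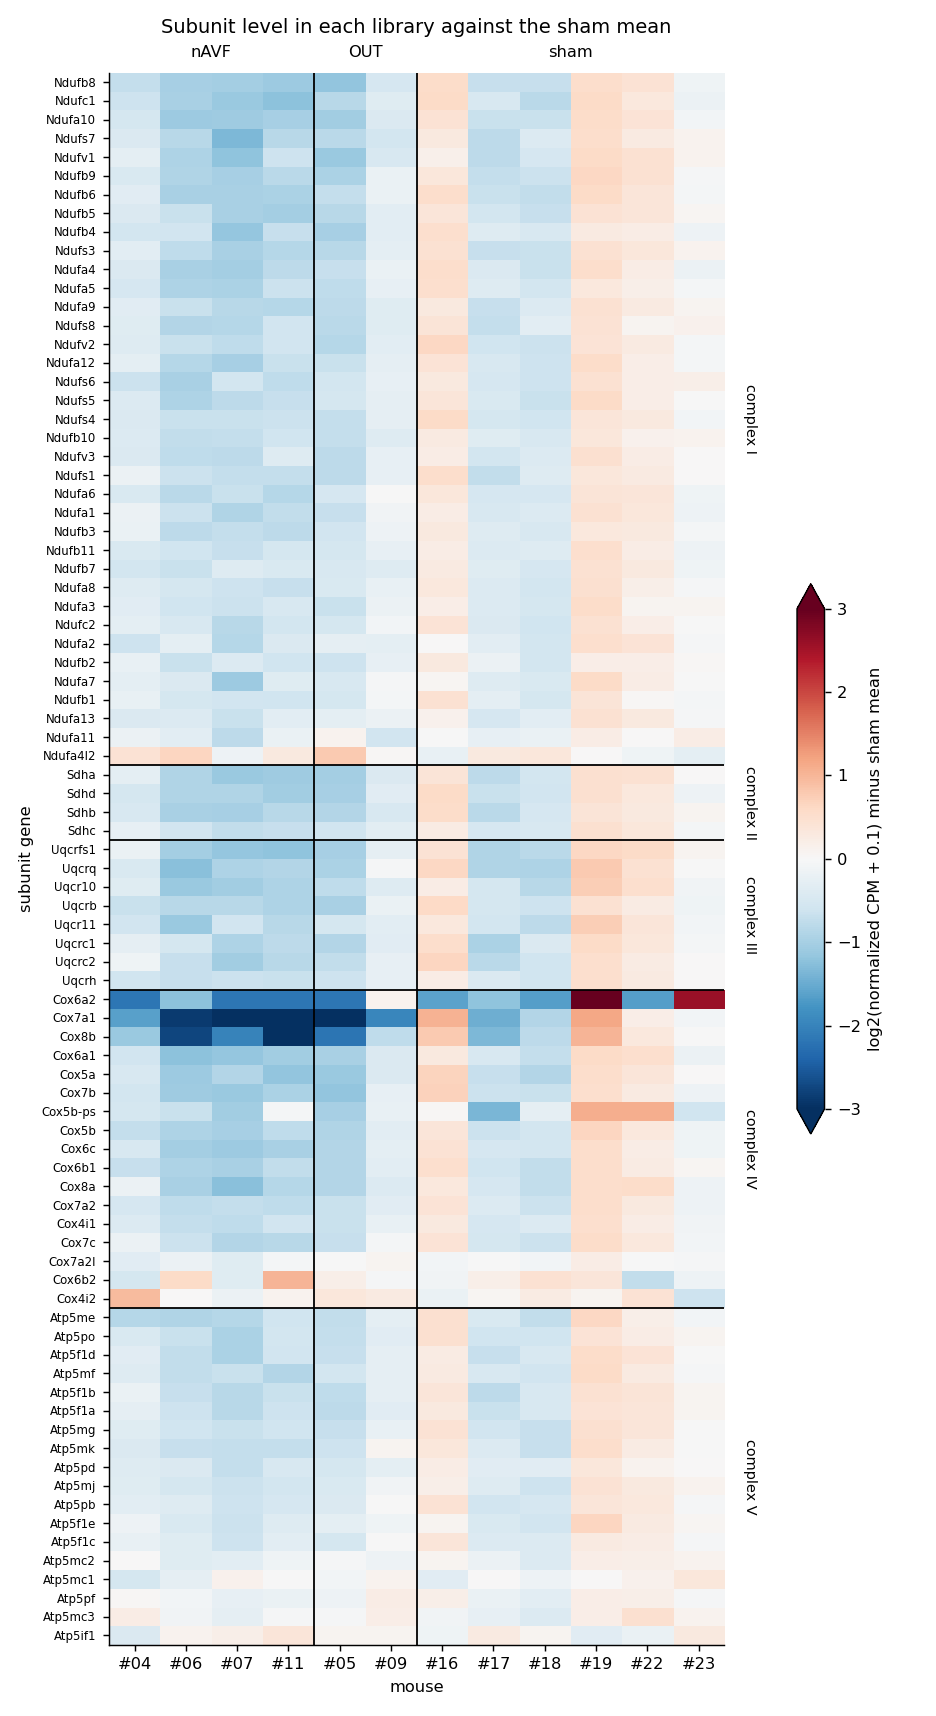
Heat map of 84 of the 85 tested subunits (rows, by complex, in the order of their fold change) in each of the 12 libraries (columns). Colour is log2(normalized CPM + 0.1) minus the sham mean of the row, and the scale ends at -3 and 3. Most rows are blue in the AVF columns and in sham #17 and #18, and red in sham #16, #19 and #22.

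The sham libraries were not alike. #16, #19, #22 and #23 were above all 6 AVF libraries in 75, 78, 77 and 71 of the 85 subunits, while #17 and #18 were so in 4 and 3. Among AVF, #07, #06, #05 and #11 were below all 6 sham libraries in 68, 56, 53 and 50 subunits, #04 in 16 and #09 in 2. The median subunit differed 2.24-fold between its highest and lowest sham library and 1.60-fold among AVF libraries, where all tested genes had medians of 1.62-fold and 1.69-fold. Only Cox7a1 had every AVF library under every sham library, a pattern of 1.51% of all tested genes, and no subunit had the opposite, a pattern of 4.55%. After the group means were taken away, the median Pearson correlation between pairs of subunits over the 12 libraries was 0.892, against -0.001 for all tested genes. The points of each such pair share libraries and their tissue make-up, so this is a description of joint movement and not a test.

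The summed level over all rows, in normalized CPM, was 5698 ± 971 in AVF and 8940.3 ± 2693 in sham (SD, n = 6 each), so that AVF stood at 63.7% of sham. Complex II, the succinate dehydrogenase, stood at 57.2% (448 ± 97.0 in AVF and 784 ± 257 in sham), complex IV at 58.9% (1058 ± 203 in AVF and 1794 ± 573 in sham) and complex III at 59.8% (579 ± 120.1 in AVF and 968 ± 342 in sham). Complex I was at 63.1% (1545 ± 265 in AVF and 2449.9 ± 733 in sham) and complex V at 70.2% (2068 ± 296 in AVF and 2944 ± 799 in sham). In each of the 5 sums the highest AVF library was #04 or #09 and lay above sham #17 and #18, so the groups overlapped. Whether the complexes differ from each other in their fall was not tested.

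**Figure D2:**
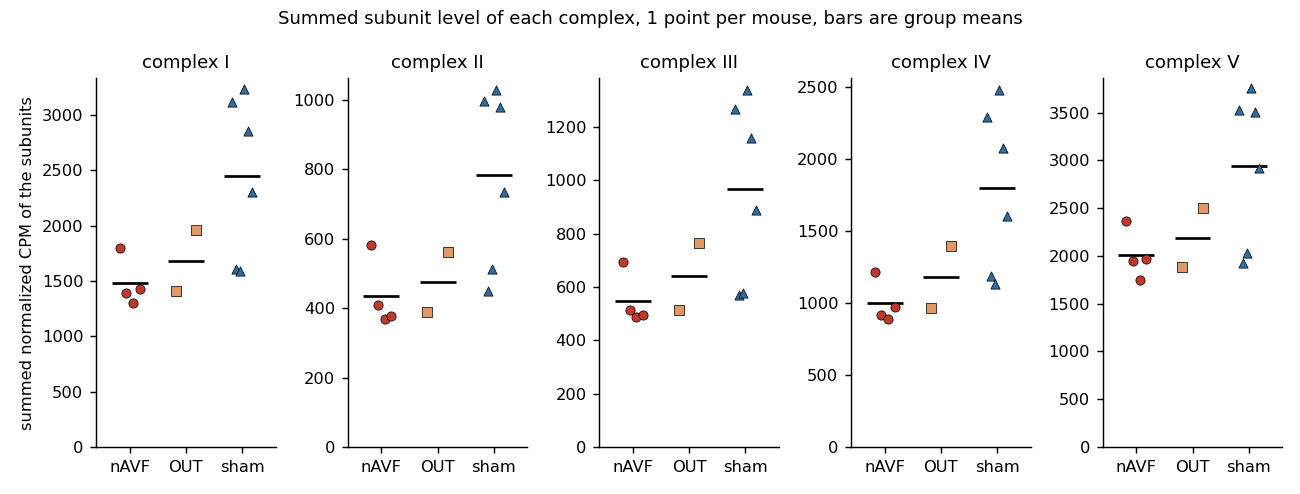
Summed normalized CPM of the subunits of each complex (y axis, from 0), 1 point per mouse, for nAVF (n = 4), OUT (n = 2) and sham (n = 6), with bars at the group means. 4 sham libraries lie above the AVF libraries in each panel, and 2 lie among them.

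Complex I, the NADH dehydrogenase and largest complex of the chain, had 21 of 38 tested subunits lower at an adjusted p value under 0.05 and 0 higher, with a median log2 fold change of -0.62. Its N module, which oxidizes NADH, had 2 of 5 subunits lower (median -0.60), its Q module, which reduces coenzyme Q, 7 of 11 (median -0.66), and its P module, the proton-pumping membrane arm, 11 of 20 (median -0.55), while Ndufa4 and Ndufa4l2 were placed in no module. The lowest p values were those of a pair of P module subunits. Ndufb10 had 40.5, 42.7 and 51.9 in AVF and 48.2, 72.8 and 85.8 in sham at the lowest, median and highest library (log2 fold change -0.62, SE 0.14, adjusted p = 0.0173). Ndufb8 had 47.6, 53.7 and 76.9 in AVF and 67.4, 123 and 159 in sham (log2 fold change -0.998, SE 0.24, adjusted p = 0.0178). In both genes every AVF library lay under sham #16, #19, #22 and #23, and the overlap was with #18 only for Ndufb10 and with #17 and #18 for Ndufb8. Core subunits of the Q and N modules fell as well, with Ndufs7 at -0.84 (adjusted p = 0.025) and Ndufv1, which binds NADH, at -0.81 (adjusted p = 0.0382). Ndufs1, a further core subunit, did not pass the test and had a value of -0.59 (adjusted p = 0.068). Among the subunits with a negative value the highest p value was that of Ndufa11, a membrane arm subunit, at 6.25, 9.1 and 11.8 in AVF and 9.16, 10.8 and 12.7 in sham (log2 fold change -0.30, SE 0.15, adjusted p = 0.194).

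Complex II has no mitochondrially encoded subunit, and all 4 of its genes fell. Sdhb, the iron-sulfur subunit, had 50.2, 55.1 and 71.9 in AVF and 57.1, 114 and 146 in sham (log2 fold change -0.83, SE 0.21, adjusted p = 0.0243). Sdhd, a membrane anchor, had 61.5, 67.8 and 99.7 in AVF and 79.2, 136 and 189 in sham (log2 fold change -0.84, SE 0.22, adjusted p = 0.0284). Sdha, the flavoprotein that oxidizes succinate, was at -0.85 (adjusted p = 0.0338) on the log2 scale. Sdhc, the other anchor, was last by p value, with 55.8, 62.3 and 78.8 in AVF and 65.9, 100.3 and 130.5 in sham (log2 fold change -0.57, SE 0.17, adjusted p = 0.048). In each of the 4, the highest AVF value exceeded the lowest sham value.

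Complex III, which passes electrons from coenzyme Q to cytochrome c, had 3 of 8 subunits lower at an adjusted p value under 0.05, Uqcrb, Uqcrh and Uqcr10, and all 8 at an unadjusted p value under 0.05. Uqcrb had 98.7, 109 and 168 in AVF and 127, 203 and 293 in sham (log2 fold change -0.78, SE 0.22, adjusted p = 0.0324). The hinge protein Uqcrh had 100.2, 105 and 138 in AVF and 108, 178 and 229 in sham (log2 fold change -0.62, SE 0.17, adjusted p = 0.0324). In both genes #09 stood above the other 5 AVF libraries. Uqcrfs1, the Rieske iron-sulfur protein, and Uqcrq had the most negative values of the complex but not the lowest p values. Uqcrq had 24.2, 30.9 and 56.1 in AVF and 30.2, 68.1 and 99.5 in sham (log2 fold change -0.85, SE 0.31, adjusted p = 0.087), with sham #17 and #18 at the level of the AVF libraries, and Uqcrfs1 a value of -0.87 (adjusted p = 0.0679).

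Complex IV, cytochrome c oxidase, had 10 of 17 tested subunits lower and 0 higher, with a median log2 fold change of -0.82. Its nuclear subunits include pairs of isoforms, one made in most tissues and one made in particular tissues or states. Cox7a1, the isoform of heart, skeletal muscle and brown fat (chr7:29883569-29885503, plus strand, GRCm39), had 6.63, 2.71, 2.48 and 1.87 in the nAVF libraries #04, #06, #07 and #11 and 2.38 and 5.2 in the OUT libraries. In sham it had 42.5, 7.44 and 11.1 in males #16, #17 and #18 and 46.5, 23.8 and 19.6 in females #19, #22 and #23. No AVF library reached the lowest sham library, and the means of 3.55 ± 1.91 and 25.2 ± 16.1 (SD, n = 6 each) lay 7.09-fold apart (log2 fold change -2.82, SE 0.48, adjusted p = 0.00326). Under the 24 settings tried its adjusted p value was at most 0.0169. Cox7a2, the isoform of most tissues, had 54.6, 56.7 and 72.9 in AVF and 58.5, 97.7 and 134 in sham (log2 fold change -0.68, SE 0.19, adjusted p = 0.0329).

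Cox8b, likewise an isoform of muscle and brown fat (chr7:140477069-140480359, minus strand, GRCm39), had 4.4, 10.3 and 26.3 in AVF and 17.5, 49.6 and 90.4 in sham (log2 fold change -1.99, SE 0.48, adjusted p = 0.0206). Its AVF libraries #04 and #09 lay above sham #17, and the other 4 below every sham library. Without #19 and #23 its adjusted p value was 0.0756. The isoform of most tissues, Cox8a, had 35.2, 46.0 and 74.3 in AVF and 49.9, 90.3 and 122 in sham (log2 fold change -0.80, SE 0.25, adjusted p = 0.0504). Cox6a2, the muscle isoform of Cox6a, reached 5.11 in sham #19 and 2.61 in sham #23 and was between 0 and 0.383 in the 10 other libraries (log2 fold change -3.90, SE 1.45, adjusted p = 0.088). Those are the sham libraries with the highest heart muscle markers (#19, 1239 normalized CPM in sum, against 60.3 to 112 in the other sham libraries) and skeletal muscle markers (#23, 2129 against 3.87 to 19.0). Without #19 and #23 the log2 fold change of Cox6a2 was 0.53. For Cox7a1, sham #16 had 42.5 with heart and skeletal muscle markers at 60.3 and 3.87 in sum and brown fat markers at 1012. The part of RNA from muscle or brown fat in the values of either gene was not tested. Cox6a1, the isoform of Cox6a in most tissues, had 73.3, 85.9 and 128 in AVF and 105, 183 and 257 in sham (log2 fold change -0.96, SE 0.23, adjusted p = 0.0198).

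A ratio of isoforms within a library is hardly affected by how libraries are scaled. The log2 ratio of Cox7a1 to Cox7a2, per transcript length, was -3.91, -3.48 and -2.38 in AVF and -2.31, -1.27 and -0.63 in sham at the lowest, median and highest library (AVF minus sham -2.03, exact permutation test, two-sided, p = 0.00216, adjusted p = 0.0173 over 8 ratios). That p value is the smallest that 6 against 6 allows, and the groups did not overlap. For Cox8b to Cox8a it was -5.29, -3.98 and -3.19 in AVF and -3.69, -2.79 and -2.36 in sham (difference -1.26, exact permutation test, two-sided, p = 0.00649, adjusted p = 0.026 over 8 ratios). The share of the muscle and brown fat isoform was thus lower in AVF for both pairs. Without #19 and #23 the adjusted p values were 0.0381 for Cox7a1 and 0.114 for Cox8b, and without #11 the value for Cox8b was 0.0519.

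Other isoforms shifted the other way relative to their counterparts. Cox4i2, an isoform known from lung and from low oxygen, had 1.29, 1.7 and 2.91 in AVF and 0.92, 1.55 and 2.03 in sham (log2 fold change 0.28, SE 0.25, adjusted p = 0.485), while Cox4i1 had 140.3, 153 and 201 in AVF and 168, 248 and 334 in sham (log2 fold change -0.59, SE 0.17, adjusted p = 0.0369). Their log2 ratio was -6.67, -6.48 and -5.85 in AVF and -7.71, -7.29 and -6.52 in sham (difference 0.81, exact permutation test, two-sided, p = 0.013, adjusted p = 0.0346 over 8 ratios). Ndufa4l2, the paralog of Ndufa4 that is known as a target of HIF-1, had 5.82, 8.43 and 11.2 in AVF and 5.32, 6.25 and 8.33 in sham (log2 fold change 0.36, SE 0.18, adjusted p = 0.194), while Ndufa4 had 90.8, 109.9 and 159 in AVF and 116, 189.7 and 268 in sham (log2 fold change -0.73, SE 0.22, adjusted p = 0.0448). Ndufa4 carries a complex I name and is counted there by the rule, although its protein is known as a part of complex IV. The log2 ratio of Ndufa4l2 to Ndufa4 was -5.42, -4.70 and -4.07 in AVF and -6.40, -5.91 and -4.65 in sham (difference 1.02, exact permutation test, two-sided, p = 0.0216, adjusted p = 0.0433 over 8 ratios). In both pairs the ratio rose with the fall of the main isoform, and neither Cox4i2 nor Ndufa4l2 passed the test alone. The call for Cox4i2 was lost without #04, #05, #06, #07 or #11 (adjusted p = 0.0519 to 0.0750), and that for Ndufa4l2 in all but the settings without #09, #17 or #18 (0.0606 to 0.0866). Without #19 and #23 together both calls were lost (0.114 and 0.171).

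Cox6b2, the testis isoform of Cox6b, had 1.26, 1.95 and 3.84 in AVF and 1.06, 1.9 and 2.58 in sham (log2 fold change 0.21, SE 0.30, adjusted p = 0.676), and Cox6b1 had 98.7, 111 and 157 in AVF and 117, 216 and 282 in sham (log2 fold change -0.82, SE 0.22, adjusted p = 0.0279). Their log2 ratio was -6.34, -5.68 and -4.76 in AVF and -7.50, -6.70 and -5.32 in sham (difference 0.90, exact permutation test, two-sided, p = 0.0671, adjusted p = 0.107 over 8 ratios). For Cox6a2 to Cox6a1 the difference was -0.73, exact permutation test, two-sided, p = 0.461, adjusted p = 0.527 over 8 ratios. Cox7a2l, which helps to join complex III and complex IV into supercomplexes, was at -0.13 (adjusted p = 0.347) on the log2 scale. Cox7b, encoded on the X chromosome, fell (78.5, 88.8 and 151 in AVF and 113, 188 and 289 in sham, log2 fold change -0.90, SE 0.26, adjusted p = 0.0361), and the remaining called subunits were Cox5a, Cox5b and Cox6c at -0.95, -0.83 and -0.82. Cox7c had -0.59 (adjusted p = 0.0961) and Cox5b-ps, with means of 0.506 and 0.952 normalized CPM in AVF and sham, -0.89 (adjusted p = 0.223).

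**Figure D3:**
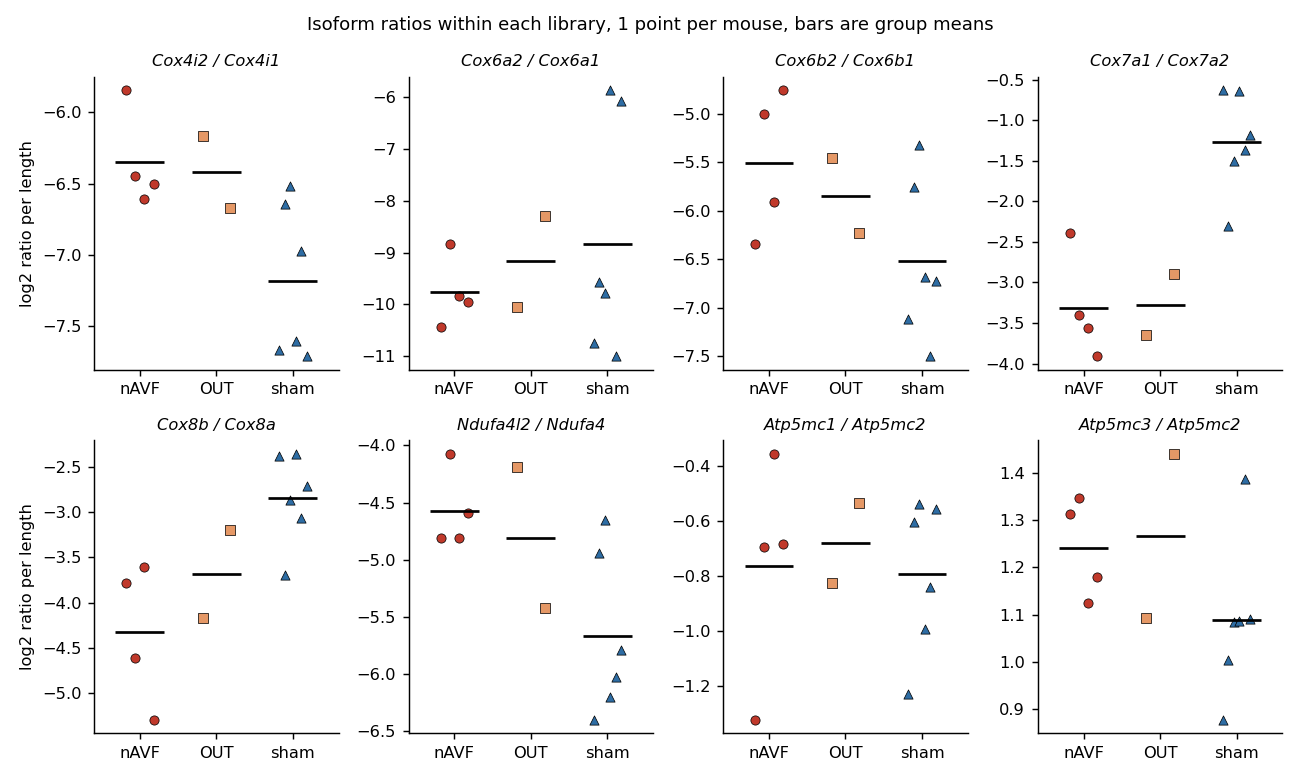
Log2 ratio of per-length levels of 8 isoform pairs within each library (y axis, scale of its own in each panel), 1 point per mouse, bars at the means of nAVF (n = 4), OUT (n = 2) and sham (n = 6). Cox7a1 to Cox7a2 is lower in every AVF library than in every sham library, and the other 7 ratios overlap between AVF and sham.

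Complex V, the ATP synthase, had 5 of 18 tested subunits lower and 0 higher, and a median log2 fold change of -0.48. Of the F1 head and its inhibitor 1 of 6 fell, Atp5f1a, the alpha subunit, at -0.62 (adjusted p = 0.0495). The catalytic beta subunit Atp5f1b, the subunit with the highest level per kilobase in sham, had 422, 472 and 656 in AVF and 435, 877 and 1037 in sham (log2 fold change -0.62, SE 0.21, adjusted p = 0.0699). Of the stalks, c ring and membrane part 4 of 12 fell: Atp5pd, Atp5me, Atp5po and Atp5mf. Atp5pd, of the peripheral stalk, had 82.6, 98.7 and 110.4 in AVF and 106, 141 and 171 in sham (log2 fold change -0.49, SE 0.12, adjusted p = 0.0236). Atp5me, a membrane subunit, had 43.7, 47.3 and 66.4 in AVF and 49.2, 84.9 and 126 in sham (log2 fold change -0.77, SE 0.21, adjusted p = 0.0324).

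The rotating c ring of the synthase is made of 1 protein that 3 genes encode, with different leader peptides, and the log2 fold changes of these genes were near 0. Atp5mc3 had 70.7, 83.3 and 101 in AVF and 64.0, 85.9 and 119 in sham (log2 fold change -0.03, SE 0.14, adjusted p = 0.914), the highest p value of the complex. Atp5mc2 had 23.1, 26.8 and 29.9 in AVF and 22.3, 32.0 and 34.4 in sham (log2 fold change -0.18, SE 0.11, adjusted p = 0.305) and Atp5mc1 9.94, 13.8 and 15.6 in AVF and 11.3, 14.4 and 18.3 in sham (log2 fold change -0.11, SE 0.14, adjusted p = 0.615). For Atp5mc1 and Atp5mc3 the libraries of the groups were mixed in order, and for Atp5mc2 sham #16, #19, #22 and #23 lay above all AVF libraries. The log2 ratios of Atp5mc1 and Atp5mc3 to Atp5mc2 differed by 0.06 (AVF minus sham, exact permutation test, two-sided, adjusted p = 0.74) and 0.16 (adjusted p = 0.118). Atp5pf, coupling factor 6 of the peripheral stalk, had -0.07 (adjusted p = 0.692), and Atp5if1, which inhibits ATP hydrolysis by the synthase, 0.06 (adjusted p = 0.8). Atp5if1 had the lowest median correlation with the other members, -0.63 over the 12 libraries after the group means were removed. Ndufa4l2 (-0.43) and Cox6b2 (-0.35) were also negative, Atp5mc1 was nearest to 0 (-0.09), and the highest was Ndufa10 (0.95).

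**Figure D4:**
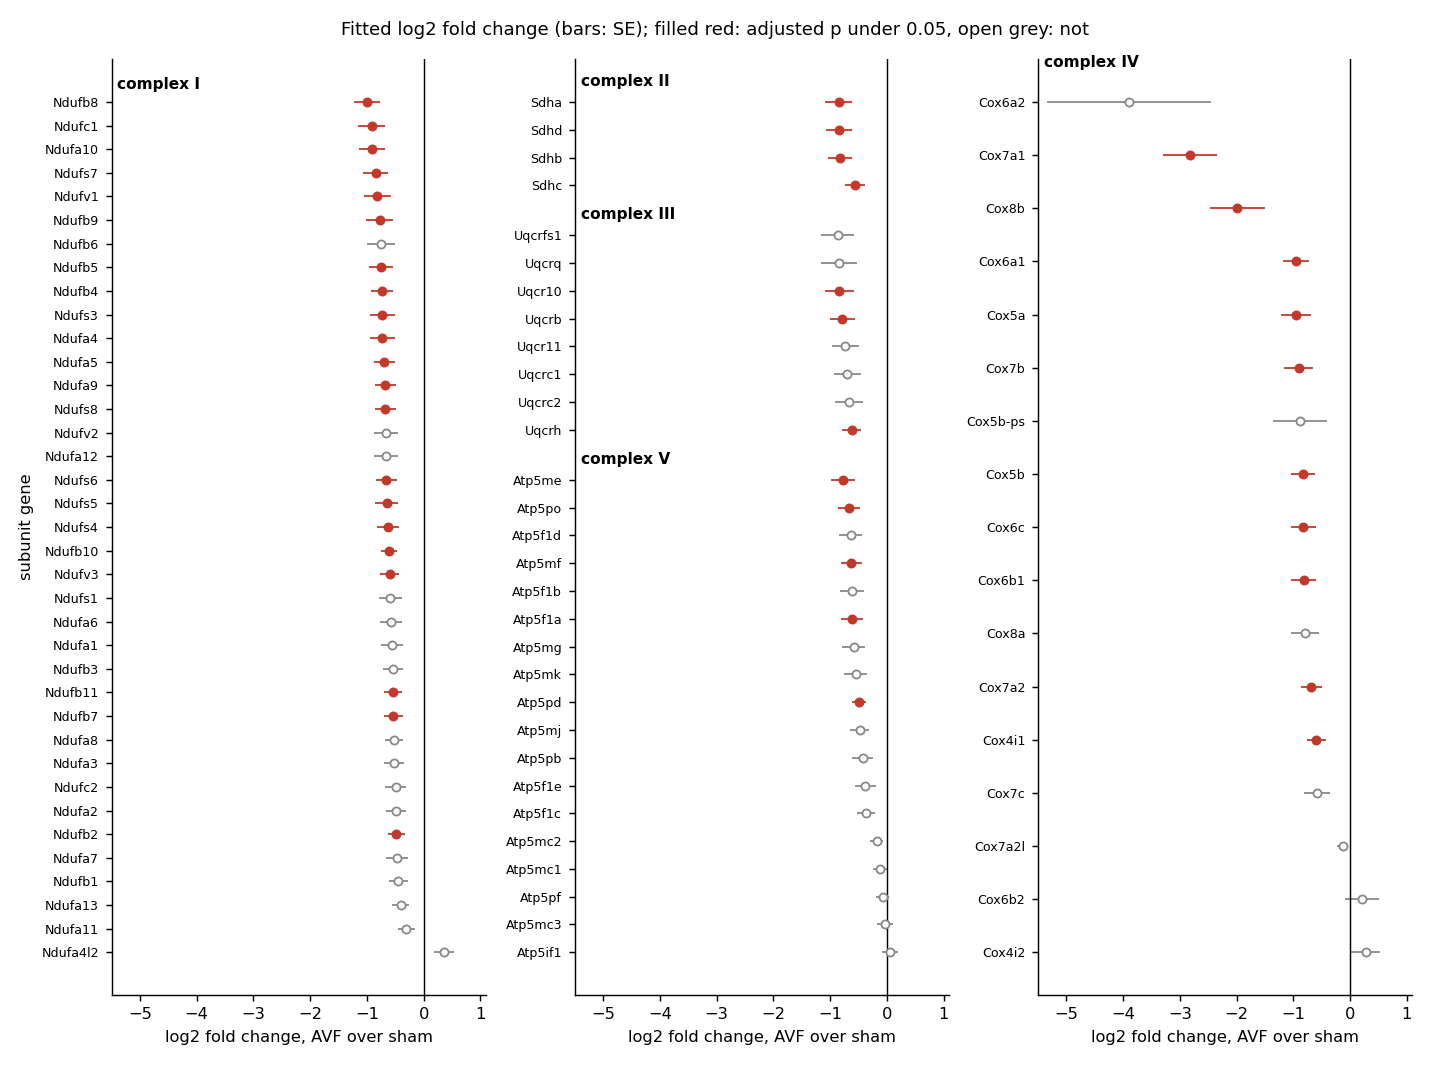
Fitted log2 fold change of AVF over sham (x axis) with its SE for 84 of the 85 tested subunits, by complex. Filled red points have an adjusted p value under 0.05 in edgeR's quasi-likelihood test (43 subunits) and open grey points do not, and Cox7a1 and Cox8b lie farthest to the left among the filled points.

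Of the tested members with and without the NRF1 motif, 9 of 13 and 28 of 54 were lower, where 5.13% of all tested genes were. Their median log2 fold changes were -0.66 and -0.65. Both Ndufb4 and Sdha, with 3 NRF1 matches each in the windows above, fell, with log2 fold changes of -0.73 and -0.85. Atp5mc2 with 1 match did not pass the test, and Cox7a1, with none of the searched letters, had the lowest p value of all. Whether the motifs bear on the fall was not tested.

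Subunit levels moved with the brown fat markers of the same library in sham, and only in part in AVF. The summed level of 11 brown fat markers (Ucp1, Cidea, Dio2, Elovl3, Otop1, Zic1, Fabp3, Kng2, Slc27a2, Adrb3 and Ppara) was 65.9 to 510 in AVF and 171 to 1935 in sham, with sham #17 and #18 lowest of the sham group at 171 and 257. Of these markers 2 were higher and 0 lower in OUT than in nAVF at an adjusted p value under 0.05, with a largest log2 fold change of 3.78. In OUT against sham their log2 fold changes were mixed, 8 negative and 3 positive, from -2.41 to 2.09. Hepatocyte markers were high in the OUT libraries too. Whether RNA of other tissues entered the marker sum, or the covariate made from these markers below, was not tested. In sham the order of the libraries from low to high was #17, #18, #23, #16, #22 and #19 for these markers and #17, #18, #23, #22, #16 and #19 for the subunit sum, and in AVF #04 and #09 were the 2 highest in both. AVF libraries #11, #06, #05 and #07 ran in opposite orders, with markers at 65.9, 115, 199 and 319 and subunit sums of 5240, 5176, 5154 and 4787. Of 10 tested markers 4 fell in AVF and 0 rose, led by Fabp3 (log2 fold change -2.65, SE 0.57, adjusted p = 0.0117) and Cidea (log2 fold change -2.21, SE 0.51, adjusted p = 0.0159), with Ucp1, the uncoupling protein that defines brown fat, at -2.83 (adjusted p = 0.079). With the mean log2 level of the brown fat markers as a covariate, 2 of the 85 subunits were lower at an adjusted p value under 0.05, where 3.13% of all tested genes were. They were Cox7a1 (log2 fold change -1.73, adjusted p = 0.0101) and Cox8b (-0.93, 0.0114). At an unadjusted p value under 0.05 13 subunits were lower. The share of all tested genes at that threshold was not counted in this fit, so the 13 cannot be read as above or near it. The median log2 fold change over all subunits was then -0.24 in place of -0.64, and it was -0.25 in complex I, -0.35 in II, -0.21 in III, -0.36 in IV and -0.13 in V. In bulk tissue, fewer cells of a type and less RNA per cell cannot be told apart. The part of the cell make-up in the result was not tested.

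**Figure D5:**
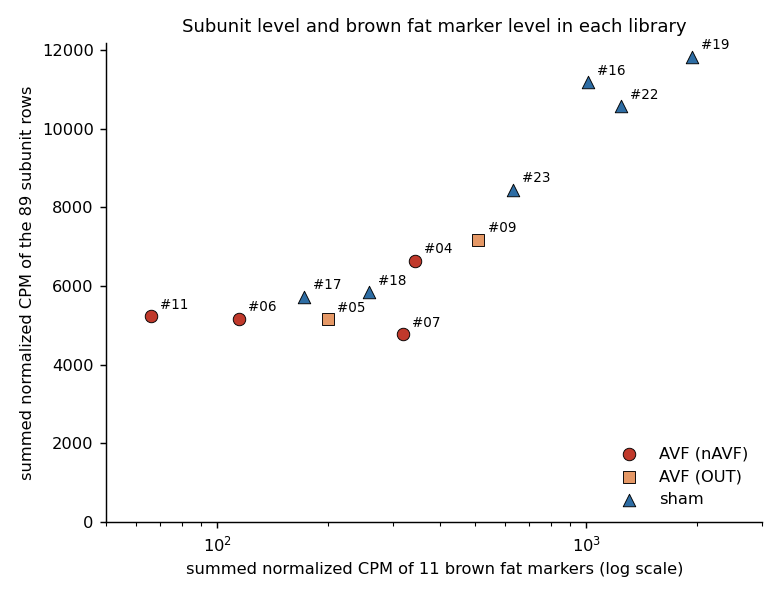
Summed normalized CPM of the 89 subunit rows (y axis, from 0) against that of 11 brown fat markers (x axis, log scale) in each of the 12 libraries. Sham #17 and #18 lie among the AVF libraries on both axes, and sham #16, #19, #22 and #23 lie above all AVF libraries on both.

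Markers of other cells moved between the groups as well. Of 8 fibroblast markers 6 rose in AVF and 0 fell, led by Mfap5 (log2 fold change 1.64, SE 0.17, adjusted p = 0.000182) and Lum (log2 fold change 1.29, SE 0.13, adjusted p = 0.000194), and their sums were 17579.6 to 29300.1 in AVF and 8526 to 16859.9 in sham, with #17 and #18 highest of the sham libraries. Of 8 macrophage markers 6 rose and 0 fell, led by C1qb and C1qa at 0.89 (adjusted p = 0.00306) and 0.89 (adjusted p = 0.00418), with sums of 1075 to 1747 and 564 to 926. White fat markers, 12 genes, had sums of 7206 to 15105 in AVF and 7283 to 15178 in sham, and 0 of them passed the test, with the lowest p values those of Pck1, -0.75 (adjusted p = 0.168), and Nnat, 0.40 (adjusted p = 0.476). Of the heart muscle markers 4 of 10 were tested and 0 passed (lowest p values Actc1, -0.73 (adjusted p = 0.107), and Myl4, -3.15 (adjusted p = 0.12)). Of 11 skeletal muscle markers 0 passed (lowest p values Actn3, -2.86 (adjusted p = 0.124), and Acta1, -4.02 (adjusted p = 0.142)). Without #19 and #23, the sham libraries highest in muscle markers, 1 of 85 subunits, Cox7a1, passed at an adjusted p value under 0.05, where 1.64% of all tested genes were lower. At an unadjusted p value under 0.05 49 subunits were lower in this fit of 6 AVF against 4 sham libraries. The share of all tested genes at that threshold was not counted, so the 49 cannot be read as above or near it.

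Among the 4 nAVF libraries against sham, 7 of 85 subunits were lower at an adjusted p value under 0.05, where 1.13% of 22059 tested genes were lower and 3.23% higher, and 0 were higher. They were Cox7a1 (log2 fold change -2.88, SE 0.57, adjusted p = 0.0151), Cox8b (log2 fold change -2.31, SE 0.53, adjusted p = 0.0292), Cox6a1, Ndufb8, Cox6c, Ndufc1 and Cox5b. The median log2 fold change was -0.72, and 74 subunits were lower and 0 higher at an unadjusted p value under 0.05, where 11.4% and 10.6% of all tested genes were. The count was 45 by the exact test of edgeR, 51 by DESeq2, 16 in 1 fit over sham, nAVF and OUT and 11 with the stricter filter. In the same order, 2.43%, 4.11%, 1.51% and 1.96% of all tested genes were lower. Left out in turn, libraries moved the count of subunits to 0 without #06 or without #11, 1 without #07, without #16 or without #22, 2 without #19 or without #23, 34 without #17 and 43 without #18, and it was 8 without #04. The share of all tested genes that were lower was 0.258% to 0.925% without #06, #11, #07, #16, #22, #19 or #23. It was 1.43% without #17, 1.62% without #18 and 1.44% without #04.

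For the 2 OUT libraries against sham, 0 of 85 subunits passed the adjusted threshold, where 0.451% of 22150 tested genes were lower and 3.48% higher. At an unadjusted p value under 0.05 6 were lower and 0 higher, against 7.25% and 9.62% of all tested genes. The exact test of edgeR and DESeq2 each called 1, where 1.37% and 2.89% of all tested genes were lower. The median log2 fold change was -0.53, with Cox7a1 at -2.74 (adjusted p = 0.0968) and Cox8b at -1.53 (adjusted p = 0.268). The 2 libraries were not alike, since the summed subunit level was 5154 normalized CPM in #05 and 7182 in #09, the highest of all AVF. Without #09 the median was -0.78 and without #05 it was -0.36. Both OUT libraries also held hepatocyte markers, with sums of 3191 in #05 and 9795 in #09 against 1.40 to 6.90 in the 10 other libraries. All 11 of these markers rose in AVF against sham, where 8.63% of all tested genes rose, led by Apoa1 (log2 fold change 9.08, SE 2.15, adjusted p = 0.0182) and Fgb (log2 fold change 11.64, SE 2.80, adjusted p = 0.0193). That rise came from the 2 OUT libraries, since 0 of the 11 markers passed in nAVF against sham (median log2 fold change 0.64). Their part in the subunit levels was not tested.

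Between OUT and nAVF, 0 of 85 subunits passed in either direction, where 0.00452% of 22123 tested genes were lower in OUT and 1.59% higher. At an unadjusted p value under 0.05 1 was higher, Ndufa6 (log2 fold change 0.46, SE 0.18), and 0 were lower, where 3.89% and 1.28% of all tested genes were. The median was 0.18, and it was -0.06 without #09 and 0.38 without #05. The comparisons with sham share their control libraries, so their values are given side by side only.

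Between the sexes the subunits did not pass the test in either operation group. In sham 0 of 85 passed, where 0.0318% of 21992 tested genes were higher in females and 0.05% lower, and at an unadjusted p value under 0.05 8 were higher and 0 lower in females, against 4.38% and 4.85% of all tested genes. The median female over male log2 fold change was 0.43, and the male group holds #17 and #18. Cox6a2 had 5.27 (SE 1.41, adjusted p = 0.404), with its counts in females #19 and #23, and Atp5mc3 0.53 (adjusted p = 0.407). Without #16 the median was 0.83 and without #18 it was 0.26. In AVF 0 passed, where 0.0271% of 22123 tested genes were lower in females and 0.00452% higher, with a median of 0.02 and 1 lower and 0 higher at an unadjusted p value under 0.05, against 1.75% and 1.55% of all tested genes. The 1 was Ndufa4l2 (log2 fold change -0.57). The interaction of operation and sex gave 0 calls among 85 subunits and among all 15912 genes. At an unadjusted p value under 0.05 4 subunits were lower and 0 higher, against 2.57% and 2.54% of all tested genes. DESeq2 gave 0 calls among the subunits, while it called 1 gene lower and 4 higher among all 15912. The median of the interaction over the subunits was -0.39, a more negative AVF effect in females than in males that did not pass the test for any subunit.

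Other mitochondrial genes were lower as well, and the counts of each list stand against 5.13% of all tested genes that fell, 8.63% that rose and 15.2% lower at an unadjusted p value under 0.05. Of 13 mitochondrially encoded subunits, 3 fell and 12 were lower at an unadjusted p value under 0.05, with a median log2 fold change of -0.70. They were led by mt-Nd6 (log2 fold change -0.85, SE 0.18, adjusted p = 0.0125) and mt-Co2 (log2 fold change -0.84, SE 0.24, adjusted p = 0.0357), and their summed level was 60741 to 122255 normalized CPM in AVF and 101469 to 187329 in sham. Of 14 genes of the citrate cycle, which feeds NADH and succinate to the chain, 8 fell (median -0.81), led by Sucla2 (log2 fold change -1.26, SE 0.28, adjusted p = 0.0132) and Idh3b (log2 fold change -1.10, SE 0.24, adjusted p = 0.0138). Among 16 genes of the electron carriers and of coenzyme Q synthesis 6 fell (median -0.66), led by Coq8a (log2 fold change -1.62, SE 0.29, adjusted p = 0.00418) and Coq6 (log2 fold change -1.04, SE 0.26, adjusted p = 0.0218). 0 genes of these 3 lists rose.

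Assembly factors, which build the complexes, had 7 of 47 lower and 0 higher (median -0.32). Coa7, a factor of complex IV, had 6.7, 7.74 and 8.23 in AVF and 9.82, 11.7 and 13.6 in sham (log2 fold change -0.60, SE 0.10, adjusted p = 0.00333), and Lyrm7, which inserts the Rieske protein of complex III, 2.8, 3.32 and 4.57 in AVF and 4.96, 7.15 and 8.04 in sham (log2 fold change -0.97, SE 0.17, adjusted p = 0.00421). In both genes every AVF library lay under every sham library. Of 21 genes of mitochondrial import, carriers and porins 4 fell and 0 rose (median -0.28), led by Opa1 (log2 fold change -0.47, SE 0.11, adjusted p = 0.0178) and the ATP/ADP carrier Slc25a4 (log2 fold change -0.36, SE 0.09, adjusted p = 0.0191). Among 18 tested transcriptional regulators of these genes 6 (33.3%) were lower and 2 higher at an unadjusted p value under 0.05, where 15.2% and 16.4% of all tested genes were. At an adjusted p value under 0.05 0 of them fell and 1 rose (median log2 fold change 0.01), a share no larger than the 8.63% of all tested genes that rose. The 1 was Hif1a, the oxygen-regulated factor, with 157, 174 and 215 in AVF and 109.9, 115 and 134 in sham (log2 fold change 0.61, SE 0.09, adjusted p = 0.00129). Ppargc1a, the coactivator PGC-1alpha of mitochondrial biogenesis, had 4.73, 9.62 and 28.7 in AVF and 12.3, 28.7 and 110.1 in sham (log2 fold change -1.76, SE 0.57, adjusted p = 0.0573), the highest values being those of sham #19 and #22.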

How the data were processed

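Poly(A) RNA of the IVC was sequenced with 1 library per mouse. Per the labels, the authors trimmed reads with Trimmomatic (version 0.39) and used STAR (2.7.7a) and RSEM (1.3.3) on GRCm39, and the deposited values are RSEM expected counts per Ensembl gene, which RSEM divides between similar sequences. Expected counts were rounded here and tested with the quasi-likelihood test of edgeR (4.0.16, R 4.3.3) after TMM normalization, with Benjamini-Hochberg adjustment over all tested genes and a threshold of 0.05. AVF against sham and its interaction with sex were tested on genes over 1 CPM in 2 or more samples, and the comparisons of fewer samples on genes with more than 12 counts over the 12 samples and any count in those compared. Isoform ratios used 0.1 CPM as pseudocount and an exact permutation test over mice. Alternatives were DESeq2 (1.42.0), the exact test, RLE scaling, other filters, covariates and left-out samples. The fit without #19 and #23 was chosen after seeing the data. The scripts were tested on simulated data. Members and lists were chosen with earlier results of these data known.

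Named with their values were the 2 subunits of lowest and the 1 of highest p in each complex, both members of each isoform pair, subunits below the filter and the 2 genes of lowest p in each other list. Further subunits were named after their values were seen. Nothing pools mice, and p values measure the spread between these mice. 665 of the 55414 rows had no gene name in the annotation used for names. The separate values of 1 tested subunit are not reported here, in the text or the figures, and it is kept in the counts and sums.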

Additional observations from a re-analysis of the deposited data

Results flagged for a closer look

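In 7 of 86 groups of 6 libraries (8.14%), Dixon's test at the 95% level flagged 1 library as apart from the other 5. Its nominal rate is 5%. The groups reuse the same libraries, and the complex sums contain the named subunits, so 8.14% cannot be set against that rate. Uqcrb, a subunit of complex III, had 168 normalized CPM in AVF #09 and 98.7 to 123 in the other AVF libraries. Uqcrh, the hinge protein of the same complex, had 138 in #09 and 100.2 to 107 in the others. Cox4i2 had 2.91 in AVF #04 and 1.29 to 1.90 in the others. Cox6a2 had 0.383 in AVF #09 and 0 to 0.0905 in the others. The summed heart muscle markers were 1239 in sham #19 and 60.3 to 112 in the other sham libraries. The summed skeletal muscle markers were 2129 in sham #23 and 3.87 to 19.0 in the others. The summed hepatocyte markers were 9795 in AVF #09, 3191 in AVF #05 and 4.00 to 6.90 in the other AVF libraries.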

How the results depend on the processing

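For AVF against sham the count of 43 lower subunits became 2 with a fold change of at least 2, 11 without the OUT samples, 2 with the brown fat covariate, 1 without #19 and #23, and 4 to 62 when 1 library was left out (the counts per library are given above). In the same order of settings, 1.4%, 1.96%, 3.13%, 1.64% and 2.47% to 5.95% of all tested genes were lower. For nAVF the 7 became 45 by the exact test, 51 by DESeq2, 11 with the CPM filter, 16 in 1 fit over the 3 groups, and 0 to 43 with 1 library left out. For OUT the 0 became 1 by the exact test and 1 by DESeq2, and 0 to 1 with 1 library left out (1 without #17). Between the sexes in sham it became 1 by DESeq2 and 0 to 1 with 1 library left out (1 without #22). With the replicate block the counts were 50, 22 and 8 for AVF, nAVF and OUT against sham, where 4.25%, 1.22% and 3.79% of all tested genes were lower, and 0 for the interaction. The replicate numbers are not shown to pair mice, since 3 of 6 same-numbered pairs correlated over 0.1 and 2 of 6 AVF libraries correlated best with their own number.

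With the brown fat covariate the median was -0.24 over all subunits in place of -0.64, and -0.25, -0.35, -0.21, -0.36 and -0.13 in complexes I to V in place of -0.62, -0.84, -0.76, -0.82 and -0.48. With 1 library left out the medians ran from -0.73 to -0.53 in complex I, -0.97 to -0.72 in II, -0.88 to -0.62 in III, -0.94 to -0.69 in IV and -0.57 to -0.40 in V. Of 8 isoform ratios 4 passed, 1 without #19 and #23 and 1 to 5 with 1 library left out (1 without #11, 2 without #04, #05, #06 or #07). Direction reversed for Cox6b2 (-0.20 with the brown fat covariate, -0.021 to 0.34 with 1 library left out), Atp5mc3 (0.20 with that covariate, 0.062 without #19 and #23, -0.11 to 0.081 with 1 library left out), Cox6a2 (0.53) and Atp5mc1 (0.0066) without #19 and #23, the ratio of Cox6a2 to Cox6a1 (0.70 without them) and that of Atp5mc1 to Atp5mc2 (-0.029 to 0.17 with 1 library left out). None of these had passed the test. The causes were not tested. Depth limits Cox6a2 and Cox5b-ps, which lie near or under the floor of 3 counts in some libraries.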

Other observations

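Markers of further cell types are given as values. Of 8 smooth muscle markers 0 passed the test in AVF against sham and 0 had an unadjusted p value under 0.05, with Tagln at 0.35 (adjusted p = 0.226) and Cnn1 at 0.32 (0.309) on the log2 scale in edgeR's quasi-likelihood test. Of 8 endothelial markers 0 passed and 0 had an unadjusted p value under 0.05, with Cdh5 at 0.15 (adjusted p = 0.307) and Pecam1 at -0.21 (0.341). Lymphocyte markers summed to 9.20 to 17.8 normalized CPM in AVF and 6.28 to 13.3 in sham, and 0 of 8 passed, with Ms4a1, the B cell marker CD20, at 1.01 (adjusted p = 0.0646) and Cd2 at 0.31 (0.292).

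Sympathetic neuron markers summed to 123 to 697 normalized CPM in AVF and 299 to 1145 in sham. 0 of 9 passed the adjusted threshold and 9 were lower at an unadjusted p value under 0.05, where 5.13% and 15.2% of all tested genes were lower, with a median log2 fold change of -1.08. Dbh, the enzyme that makes noradrenaline, had -1.25 (adjusted p = 0.0616) and Hand2, a transcription factor of these neurons, -1.07 (0.0633). The lowest sham sum was that of #19, the library with the highest subunit sum.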
